A study of Mus musculus with 16 samples.

Results

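The comparison described here sets the cerebellum of nicotinamide riboside (NR)-treated mice without Atm beside that of untreated wild-type littermates, and asks what stays different from the normal untreated state after treatment and what NR adds. It was defined by the sample labels and used 8 of 16 arrays, 4 labelled Atm-/- with NR (Atm-/- NR) and 4 labelled wild type with vehicle (WT veh). All mice came from the B6;129S4-Atmtm1Bal/J strain and were 3.5 months old, and the labels give them as male. From 6 weeks of age NR was dissolved in the drinking water (12 mM, that is 3.5 mg/ml) for 2 months, and vehicle mice drank water alone. The Atm-/- animals carried the targeted allele in every cell and on a mixed background of B6 and 129 strains. The other 8 arrays, 4 of Atm-/- veh and 4 of WT NR, were used for the spread between arrays and for comparisons side by side. RNA came from the cerebellar cortex and was labelled with Cy3, and the signal of a spot stands for the RNA bound by its probe.

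ATM is a kinase that is activated by DNA double-strand breaks and phosphorylates repair and checkpoint proteins, among them the histone variant H2AX. Its loss in people causes ataxia telangiectasia, in which the cerebellum and its Purkinje cells degenerate. NR is a vitamin B3 form that cells convert to NAD+, the coenzyme of mitochondrial oxidation and the substrate of sirtuins and of poly(ADP-ribose) polymerases.

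All 19 markers of Purkinje cells and all 16 of granule cells, the main output neurons and the most numerous neurons of the cerebellar cortex, passed the filter for dim probes. That is no check of the tissue label, since 65.8% of all probes passed, as did all 17 markers of endothelial cells and pericytes. Slide 1 carried the WT samples and slide 2 the mutants, and on each of them the vehicle samples filled row 1 and the NR samples row 2. Slide and row therefore cannot be told apart from genotype and treatment. Between 34945 and 37817 probes per array were well above background in Atm-/- NR and between 37843 and 42559 in WT veh, with no overlap (two-sided exact permutation p = 0.0286, the lowest possible with 4 arrays against 4). The SD of negative control spots, 3.64 to 4.07 against 2.89 to 3.56, and the number of outlier spots, 220 to 270 against 99 to 174, did not overlap either. The part of these array properties in the results below was not tested. Replicate 4 of Atm-/- NR had signal for Xist, the RNA of the inactive X chromosome of females, and none for Y-linked genes, which goes against its label. The same was seen on 0 arrays of WT veh, 2 of WT NR and 1 of Atm-/- veh.

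Few genes differed past the test, and they fell into sets that split the arrays in different ways. Of 37253 probes, 289 (0.776%) were called in Atm-/- NR against WT veh at an adjusted p under 0.05 (limma, Benjamini-Hochberg), 158 higher and 131 lower. That balance depended on the processing: the deposited z-scores gave 154 higher and 278 lower, and no filter on dim probes 76 higher and 129 lower. Of 16737 named genes, each read from its brightest probe, 60 (0.358%) were higher and 68 (0.406%) lower in Atm-/- NR. The median size of the difference among the called genes was 0.55 on the log2 scale, and 21 were higher and 8 lower by more than 1. The genes called higher were dim, with a median log2 signal of 9.21 in WT veh, and those called lower had a median of 11.04 beside 10.90 for all named genes. The count depended on single arrays. It was 27 probes without Atm-/- NR 4, 50 without Atm-/- NR 2, 144 without Atm-/- NR 3, 104 without WT veh 1, 45 without WT veh 2 and 151 without WT veh 4.

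Atm itself was read from 2 probes, as a check of the labels. The dimmer probe was at log2 signals of 8.63, 8.85, 9.03 and 8.86 on the WT veh arrays and at 7.88, 7.72, 7.85 and 7.83 on the Atm-/- NR arrays. The groups did not overlap, and Atm-/- NR was lower by 1.02 (log2 difference -1.02, SE 0.083, limma, adjusted p = 8.4e-05). On the brighter probe the values were 9.05, 9.19, 9.27 and 8.97 in WT veh and 8.79, 9.23, 8.72 and 8.61 in Atm-/- NR. That difference of -0.28 was not called (limma, adjusted p = 0.209). Atm-/- NR 2 lay among the WT veh arrays and the other 3 below all of them, and without Atm-/- NR 2 the difference was -0.41 and still not called (limma, adjusted p = 0.0748). Where either probe lies relative to the engineered change of the allele was not analysed here.

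Genes placed close to Atm made up all 13 of the genes called in the same direction whichever genotype had received NR. Of 369 named genes within 20 Mb of Atm, 18 (4.88%) were called, 5 higher and 13 lower, beside 110 of 16368 elsewhere (0.672%). The median size among them was 0.77 on the log2 scale, against 0.52 elsewhere. Vehicle-treated Atm-/- against NR-treated WT shares no array with Atm-/- NR against WT veh and has the treatment the other way round, although the slides, the normalization and the estimate of the spread are shared. In that comparison 1556 named genes (9.3%) were called, 666 higher (3.98%) and 890 lower (5.32%) in Atm-/- veh. Of the 18 genes near Atm, 13 were called there in the same direction, 1 in the opposite direction and 4 were not called. Of the 110 genes elsewhere, 0 were called there in the same direction, 39 were called in the opposite direction and 71 were not called. With each of the 16 arrays left out in turn, between 4 and 13 genes near Atm and between 0 and 1 elsewhere were called in the same direction. The lowest counts near Atm were 4 without Atm-/- NR 4, 7 without WT veh 2 and 8 without WT veh 4. In Atm-/- veh against WT veh, the starting difference, 9 of 16737 named genes were called, 1 higher and 8 lower. In Atm-/- NR against WT NR 10 were called, 2 higher and 8 lower (limma). Tmem25, Fxyd6, Nxpe4, Il10ra and Zc3h12c were called in the first of these. Bco2, Cryab, Ppcdc, Ift46 and 1700063D05Rik were not (limma, adjusted p between 0.0512 and 0.106), with differences in the same direction.

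**Figure D1:**
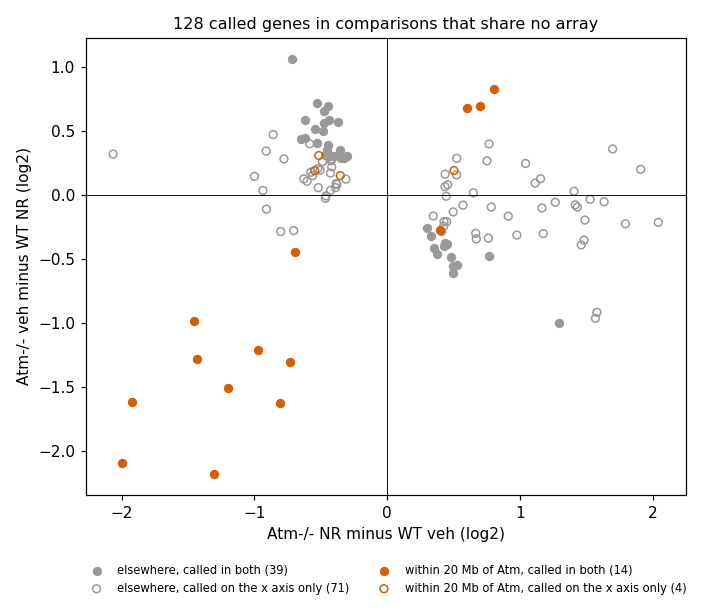
Each point is 1 of the 128 named genes called in Atm-/- NR against WT veh, with that log2 difference on the x axis and the log2 difference between Atm-/- veh and WT NR, which uses none of the same arrays, on the y axis. Filled points were called in both; 13 of 18 genes within 20 Mb of Atm (orange) are called with the same sign on both axes, while the 39 filled grey points have opposite signs.

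On the brightest probe of each gene, the largest called difference near Atm was that of Tmem25, which codes for a membrane protein of the immunoglobulin superfamily. Its log2 signals were 14.17, 14.75, 14.69 and 14.29 in WT veh and 12.40, 12.50, 12.42 and 12.59 in Atm-/- NR. All Atm-/- NR arrays lay far below all WT veh arrays (log2 difference -1.998, SE 0.17, limma, adjusted p = 1.2e-04). The vehicle-treated mutants were at 12.88, 12.69, 12.22 and 12.77 and the WT NR mice at 15.05, 14.49, 14.53 and 14.86, so all 8 Atm-/- arrays lay below all 8 WT arrays.

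Bco2, a mitochondrial enzyme that cleaves carotenoids, was at 6.48, 7.39, 7.34 and 8.02 in WT veh and at 5.66, 5.19, 5.64 and 5.04 in Atm-/- NR, where it was well above background on 2 of 4 arrays. The groups did not overlap and Bco2 fell by 1.92 (log2, SE 0.28, limma, adjusted p = 0.0126). Fxyd6, a small membrane protein that regulates the sodium pump, was bright on every array, at 15.73, 16.21, 16.09 and 15.98 in WT veh and at 14.44, 14.61, 14.84 and 14.40 in Atm-/- NR. It was 2.70-fold lower (log2 difference -1.43, SE 0.20, limma, adjusted p = 0.0115), and with vehicle in place of NR the mutants were as low, between 14.04 and 15.07. Nxpe4 was at 8.24, 9.01, 9.07 and 9.12 against 7.34, 7.67, 7.20 and 7.42, a log2 difference of -1.45 (SE 0.17, limma, adjusted p = 0.00334). WT veh 1 stood below the other WT veh arrays in Nxpe4 but above every mutant array.

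Il10ra, the ligand-binding chain of the receptor for the anti-inflammatory cytokine interleukin 10, was at 8.66, 9.15, 9.33 and 9.24 in WT veh and at 7.53, 8.27, 8.06 and 7.29 in Atm-/- NR. The difference was -1.31 (log2, SE 0.22, limma, adjusted p = 0.0272), and -2.18 between Atm-/- veh and WT NR (SE 0.22, limma, adjusted p = 5.2e-04). Its second probe was also lower in Atm-/- NR, at 3.01 to 4.99 against 5.48 to 6.34, and was not called (limma, adjusted p = 0.0533). Cryab, the small heat shock protein alpha B-crystallin, was at 14.46, 14.38, 14.04 and 14.58 in WT veh and at 13.43, 13.40, 13.30 and 13.44 in Atm-/- NR. The 4 treated mutants lay close together and below all controls, 1.96-fold lower (log2 difference -0.97, SE 0.19, limma, adjusted p = 0.0400). The RNA 1700063D05Rik fell by 1.20 (log2, SE 0.23, limma, adjusted p = 0.0344).

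Pts, like Alg9 and 9230112J17Rik below chosen after its values were seen, makes a precursor of tetrahydrobiopterin, the cofactor of dopamine, serotonin and nitric oxide synthesis. It was at 9.81, 10.48, 10.47 and 10.52 in WT veh and at 9.53, 9.72, 9.35 and 9.46 in Atm-/- NR, a log2 difference of -0.81 (SE 0.16, limma, adjusted p = 0.0375). In Atm-/- veh it was lower still, at 8.98, 9.02, 8.65 and 9.21, and the treated mutants lay 0.55 above those (SE 0.16, limma, adjusted p = 0.0433). Pts thus stood between its levels in untreated mutants and untreated wild types on all 4 Atm-/- NR arrays. Alg9, a mannosyltransferase that builds N-glycans, fell by 0.69 (SE 0.11, limma, adjusted p = 0.0152), and 9230112J17Rik fell by 0.73 (SE 0.16, limma, adjusted p = 0.0491).

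The genes near Atm called higher in both comparisons were Ppcdc, Zc3h12c and Ift46. Ppcdc, an enzyme of coenzyme A synthesis, was at 11.41, 11.35, 10.86 and 10.93 in WT veh and at 12.01, 12.05, 11.82 and 11.89 in Atm-/- NR. The groups did not overlap, and it rose by 0.80 (log2, SE 0.11, limma, adjusted p = 0.0117). Zc3h12c, a member of a family of zinc finger ribonucleases, rose by 0.70 on its brightest probe (SE 0.11, limma, adjusted p = 0.0152) and differed by 0.17 on the other (limma, adjusted p = 0.645). Ift46 belongs to the machinery that carries cargo along cilia. Its brightest probe lay 0.60 higher (SE 0.092, limma, adjusted p = 0.0152), whereas another of its 3 probes lay 2.52 lower (log2 difference -2.52, SE 0.31, limma, adjusted p = 0.00428), so no direction is given for the gene.

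**Figure D2:**
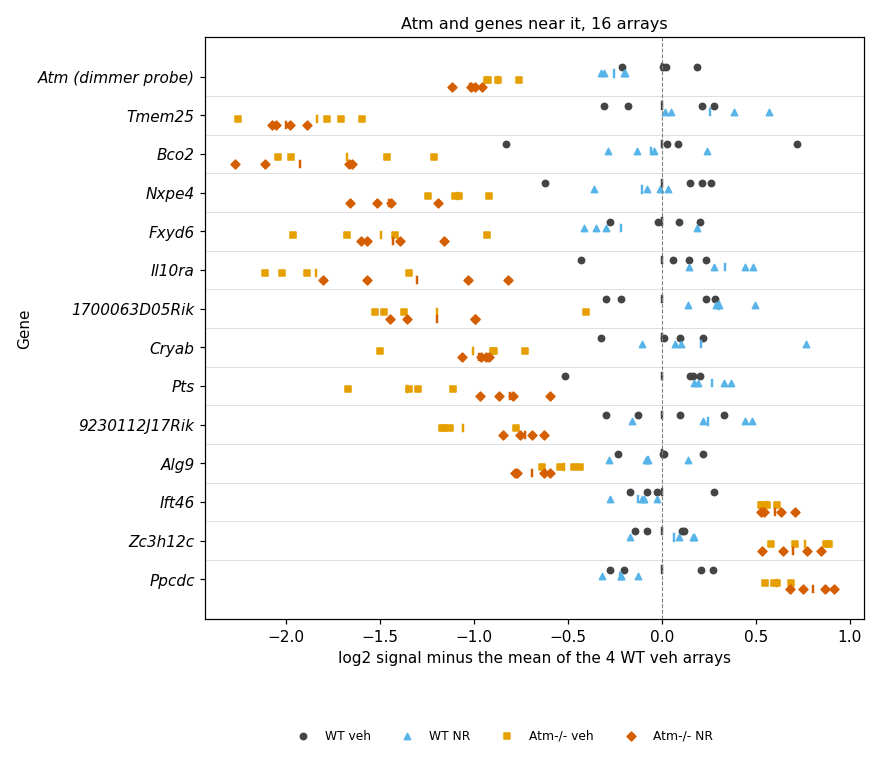
Each point is 1 array, and the x axis gives its log2 signal minus the mean of the 4 WT veh arrays, for the dimmer Atm probe and the 13 genes near Atm called in the same direction in both comparisons. Ticks mark group means; in every row the 8 Atm-/- arrays lie on 1 side of the 8 WT arrays.

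All 13 of these genes split the 16 arrays by genotype without overlap, and among the called genes elsewhere 1 of 110 did, Gm19668. The same split was seen in 21 of all 369 genes near Atm (5.69%) and in 26 of 16368 elsewhere (0.159%). The 13 had been chosen by calls in the same direction in comparisons that together use all 16 arrays. Their own split is therefore no further support. The 5 other called genes near Atm split otherwise, and all but H2ax were chosen after their values were seen. H2ax, the histone variant phosphorylated at double-strand breaks, was at 12.85, 12.83, 12.86 and 12.99 in WT veh and at 13.19, 13.38, 13.30 and 13.25 in Atm-/- NR. It rose by 0.40 (log2, SE 0.075, limma, adjusted p = 0.0351) and was higher on all 8 NR arrays than on all 8 vehicle arrays. The transcription factor gene Hinfp (-0.55, SE 0.10, limma, adjusted p = 0.0313), the oligosaccharyltransferase subunit gene Stt3a (-0.52, SE 0.11, adjusted p = 0.0449) and Sltm (-0.35, SE 0.074, adjusted p = 0.0480) fell. 1110032A03Rik rose by 0.50 (SE 0.085, limma, adjusted p = 0.0268). None of the last 4 was called in Atm-/- veh against WT NR.

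Away from Atm, some of the called genes split the arrays by treatment, and more of them by neither label. Of the 110 called genes elsewhere, 47 separated all 8 NR arrays from all 8 vehicle arrays and 62 split by neither label, while 265 of all 16368 genes elsewhere (1.62%) split by treatment. Called genes were chosen for a difference between Atm-/- NR and WT veh, and 127 of the 128 did not overlap there. The 47 are therefore a description, and their excess over 1.62% is no support. Atm-/- NR and Atm-/- veh lay on the same slide, and between them 1920 named genes (11.5%) were called, 1117 higher (6.67%) and 803 lower (4.8%) in Atm-/- NR. Between WT NR and WT veh, also on 1 slide, 0 of 16737 named genes (0%) and 0 of 37253 probes were called (limma, smallest adjusted p = 0.229), and 2838 probes had an unadjusted p under 0.05. The first of these comparisons shares the Atm-/- NR arrays with the one against WT veh, so its values are given beside each gene and its calls are not independent. For 0 of the 77 genes given here with their values did the NR effect differ between genotypes (limma, interaction, smallest adjusted p = 0.839), which does not show that the effects were equal.

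Car8 rose strongly and was bright in every group. It codes for a carbonic anhydrase-related protein of Purkinje cells that binds the inositol trisphosphate receptor. Its log2 signals were 14.05, 12.45, 14.36 and 13.47 in WT veh and 15.19, 15.09, 15.11 and 15.21 in Atm-/- NR. The treated mutants were tightly grouped and above all WT veh arrays, which spread widely, and Car8 was 2.96-fold higher (log2 difference 1.57, SE 0.31, limma, adjusted p = 0.0402). Its second probe rose by 1.59 (SE 0.24, limma, adjusted p = 0.0156). WT NR was as high, at 15.24, 14.97, 14.86 and 14.97, and Atm-/- veh, at 14.24, 14.23, 13.48 and 14.24, overlapped WT veh. Atm-/- NR lay 1.10 above Atm-/- veh (SE 0.31, limma, adjusted p = 0.0417). The RNA 4930412C18Rik gave the same picture, at 7.57, 5.59, 7.20 and 6.99 in WT veh and at 8.27, 8.46, 8.55 and 8.38 in Atm-/- NR (log2 difference 1.58, SE 0.30, limma, adjusted p = 0.0353).

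Ndufa4, named by the rule for its list, and Chchd3, Pdhb and Mterf1a, chosen after their values were seen, code for mitochondrial proteins and were called higher. Their adjusted p lay close to the threshold, and under 16 alternative settings the call was kept in 4 for Ndufa4, 4 for Chchd3, 4 for Pdhb and 7 for Mterf1a. Ndufa4 codes for a subunit of cytochrome c oxidase and was named for complex I. It was at 16.41, 16.34, 16.33 and 15.97 in WT veh and at 16.65, 16.70, 16.67 and 16.74 in Atm-/- NR, a 1.34-fold rise (log2 difference 0.43, SE 0.091, limma, adjusted p = 0.0491) with no overlap. Chchd3, a subunit of the complex that shapes cristae, was at 13.61, 13.75, 13.65 and 13.33 against 13.89, 14.00, 14.14 and 14.07 (log2 difference 0.44, SE 0.093, limma, adjusted p = 0.0486). Pdhb, part of the pyruvate dehydrogenase complex, rose by 0.35 (SE 0.072, limma, adjusted p = 0.0449). Mterf1a, which ends mitochondrial transcription, rose by 0.37 (SE 0.071, limma, adjusted p = 0.0358). Against Atm-/- veh these genes lay higher by 0.33 for Ndufa4, 0.53 for Chchd3, 0.48 for Pdhb and 0.60 for Mterf1a. In WT NR against WT veh the differences were 0.31, 0.29, 0.29 and 0.23, none of them called. A further pair, Sephs2 and Pstk, both in the synthesis of selenocysteine and also chosen after their values were seen, rose by 0.33 (SE 0.068, limma, adjusted p = 0.0480) and 0.30 (SE 0.063, limma, adjusted p = 0.0487). They stayed called in 3 and 4 of the 16 settings.

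The start regions of Ndufa4, Chchd3 and Pdhb are shown because they are the starts of nuclear genes for mitochondrial proteins that were called higher. They are RefSeq sequences of assembly GRCm38.p6 on the minus strand, from 250 bases before to 50 after the start, at chr6:11907401-11907700, chr6:33060211-33060510 and chr14:8172943-8173242. Capitals mark the core GCGCATG of nuclear respiratory factor 1 or the ETS core CCGGAAG, searched on both strands.
Ndufa4: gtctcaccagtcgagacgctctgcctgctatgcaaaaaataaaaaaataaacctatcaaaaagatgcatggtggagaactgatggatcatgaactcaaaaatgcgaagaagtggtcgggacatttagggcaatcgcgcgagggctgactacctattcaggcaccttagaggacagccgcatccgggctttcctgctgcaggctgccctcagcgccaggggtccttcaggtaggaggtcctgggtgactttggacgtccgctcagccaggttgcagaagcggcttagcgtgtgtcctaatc
Chchd3: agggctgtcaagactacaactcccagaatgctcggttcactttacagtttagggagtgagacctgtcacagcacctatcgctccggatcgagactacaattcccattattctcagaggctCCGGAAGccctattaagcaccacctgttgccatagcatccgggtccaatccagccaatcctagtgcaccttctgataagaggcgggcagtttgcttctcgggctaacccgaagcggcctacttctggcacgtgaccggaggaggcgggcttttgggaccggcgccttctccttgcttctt
Pdhb: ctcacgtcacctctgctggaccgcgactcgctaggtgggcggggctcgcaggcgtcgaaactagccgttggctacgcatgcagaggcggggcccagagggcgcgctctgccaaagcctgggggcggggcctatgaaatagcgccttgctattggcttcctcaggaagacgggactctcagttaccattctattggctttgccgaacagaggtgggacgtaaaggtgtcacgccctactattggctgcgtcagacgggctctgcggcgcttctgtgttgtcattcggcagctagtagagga
The ETS core was found once, in Chchd3, and neither set of letters in the other windows. Over 32851 promoters of the same length, 3.91% held the first core and 8.86% the second. Among the 68 promoters matched to genes of the respiratory chain and ATP synthase, 12 (17.6%) and 17 (25%) did. A match is a run of letters and not a binding site.

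The respiratory chain and ATP synthase were described as a list of 85 genes, of which 78 were kept. Of these, 63 had a higher mean in Atm-/- NR, 21 (26.9%) were higher without overlap between the groups and 1 (1.28%) lower, beside 6.7% and 5.27% of all named genes, and 1 was called. The median log2 difference was 0.098, beside 0.0023 for all named genes. By complex, the members higher without overlap were 12 of 35 of complex I, 1 of 4 of complex II, 2 of 9 of complex III, 1 of 13 of complex IV and 5 of 17 of ATP synthase. Ndufb6 was at 14.89, 14.63, 14.65 and 14.70 in WT veh and at 14.94, 14.96, 15.05 and 15.03 in Atm-/- NR (log2 difference 0.28, limma, adjusted p = 0.0761). Ndufa8 and Ndufs3 differed by 0.30 and 0.26 (limma, adjusted p = 0.0792 and 0.0997). Averaged over the list, the deviation of an array from the 16-array mean of each gene was 0.048 to 0.079 in Atm-/- NR and -0.108 to 0.036 in WT veh. It was -0.0205 to 0.0675 in WT NR, which overlapped Atm-/- NR, and -0.145 to 0.024 in Atm-/- veh. The list median was 0.079 in WT NR against WT veh and 0.00097 in Atm-/- veh against WT veh. With 75th percentile scaling the list median in Atm-/- NR against WT veh was 0.19.

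Genes called lower away from Atm included Igf1r and Sp140. Igf1r, the receptor of insulin-like growth factor 1 and chosen after its values were seen, was at 10.45, 10.44, 10.44 and 10.55 in WT veh and at 9.91, 9.82, 9.70 and 9.83 in Atm-/- NR. The groups lay far apart relative to their spread, and Igf1r was 1.57-fold lower (log2 difference -0.65, SE 0.078, limma, adjusted p = 0.00326). WT NR was between them, at 10.32, 10.08, 10.02 and 10.16, and Atm-/- veh was at 10.68, 10.56, 10.60 and 10.49. Sp140, a chromatin reader of nuclear bodies, was at 10.61, 10.66, 10.81 and 10.88 in WT veh and at 9.82, 9.66, 9.94 and 9.81 in Atm-/- NR. It fell by 0.94 (SE 0.12, limma, adjusted p = 0.00728), and the other groups lay with WT veh, between 10.32 and 10.89. Its 2 other probes differed by -0.56 and -0.44 and were not called (limma, adjusted p = 0.185 and 0.434).

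Plagl1, an imprinted zinc finger transcription factor gene, was at 12.71, 12.73, 12.67 and 13.50 in WT veh and at 12.03, 12.04, 11.96 and 11.94 in Atm-/- NR. WT veh 4 stood high, but the other 3 were also above every Atm-/- NR array (log2 difference -0.91, SE 0.15, limma, adjusted p = 0.0218). Its other probe, at 8.27 to 8.63 and 8.52 to 8.65, differed by 0.080 in the other direction (limma, adjusted p = 0.752). Npm3, a histone chaperone gene, fell by 1.0004 (SE 0.21, limma, adjusted p = 0.0480) and was well above background on 2 of the 4 Atm-/- NR arrays. Frem3 and Vmn2r112 were called lower but not well above background on any Atm-/- NR array, so no fold is given.

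A further set of genes called lower was chosen after their values were seen. Slc3a2, the heavy chain of amino acid transporters, was at 14.39, 14.65, 14.43 and 14.23 against 13.84, 13.98, 13.95 and 13.81 (log2 difference -0.53, SE 0.088, limma, adjusted p = 0.0224). Adar, an RNA-editing adenosine deaminase, fell by 0.51 (SE 0.093, limma, adjusted p = 0.0313). Cpt1a, which commits fatty acids to mitochondrial oxidation, fell by 0.43 (SE 0.079, limma, adjusted p = 0.0322). Braf, the kinase upstream of MEK, fell by 0.39 (SE 0.068, limma, adjusted p = 0.0292), and the calcium pump gene Atp2b1 by 0.38 (SE 0.078, adjusted p = 0.0460). The postsynaptic scaffold gene Dlg2 (-0.42, adjusted p = 0.0426, limma), the chromatin remodelling gene Arid1a (-0.49, adjusted p = 0.0485) and Rai1 (-0.42, adjusted p = 0.0374) were also lower. The second probes of Slc3a2 and Rai1 had the opposite sign (0.53 and 0.11) and were not called, and the 3 other probes of Dlg2 differed by -0.072, 0.014 and -0.16 and were not called either. Against Atm-/- veh the differences were -0.54 for Slc3a2, -0.45 for Adar, -0.38 for Cpt1a, -0.25 for Braf and -0.39 for Dlg2.

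Axon guidance and neural adhesion genes gave 2 calls among 60 kept, both lower. L1cam, a cell adhesion molecule of growing axons, was at 11.49, 11.55, 11.60 and 11.64 in WT veh and at 11.03, 10.93, 11.03 and 10.999 in Atm-/- NR. It fell by 0.58 (SE 0.11, limma, adjusted p = 0.0374), and its other probes differed by -0.53 and -0.26 without being called. Plxnb2, a semaphorin receptor, was at 13.78, 13.68, 13.84 and 13.85 against 13.51, 13.34, 13.20 and 13.25 (log2 difference -0.46, SE 0.082, limma, adjusted p = 0.0303). The list had 8 members lower without overlap (13.3%) and 0 higher, with a median of -0.15. Its mean deviation overlapped between the groups, at -0.117 to 0.39 in WT veh, highest on WT veh 4, and -0.125 to 0.058 in Atm-/- NR. The list median was also -0.15 in Atm-/- veh against WT veh, and it was 0.10 in Atm-/- NR against Atm-/- veh. Without overlap the background was 5.27% lower, and 11 members were lower and 4 higher at an unadjusted p under 0.05. Elastic fibre and collagen genes had 2 of 30 called lower and a median of -0.22. Of the 30, 2 were lower without overlap (6.67%) beside 5.27% of all named genes. The mean deviation of this list overlapped between the groups, at -0.0826 to 0.483 in WT veh and -0.393 to 0.192 in Atm-/- NR. Meninges markers were at 0.123 to 0.659 and -0.546 to 0.672, and WT veh 4 and Atm-/- NR 3 were highest and WT veh 2 and Atm-/- NR 4 lowest of their groups in both lists. Col1a1, Col1a2 and Col3a1 belong to both lists, so part of this shared order is built in. The part of meningeal RNA was not tested. The genes called were Ltbp3, which binds latent TGF-beta (-0.47, SE 0.085, limma, adjusted p = 0.0304), and the fibrillar collagen gene Col5a1 (-0.80, SE 0.17, adjusted p = 0.0491).

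**Figure D3:**
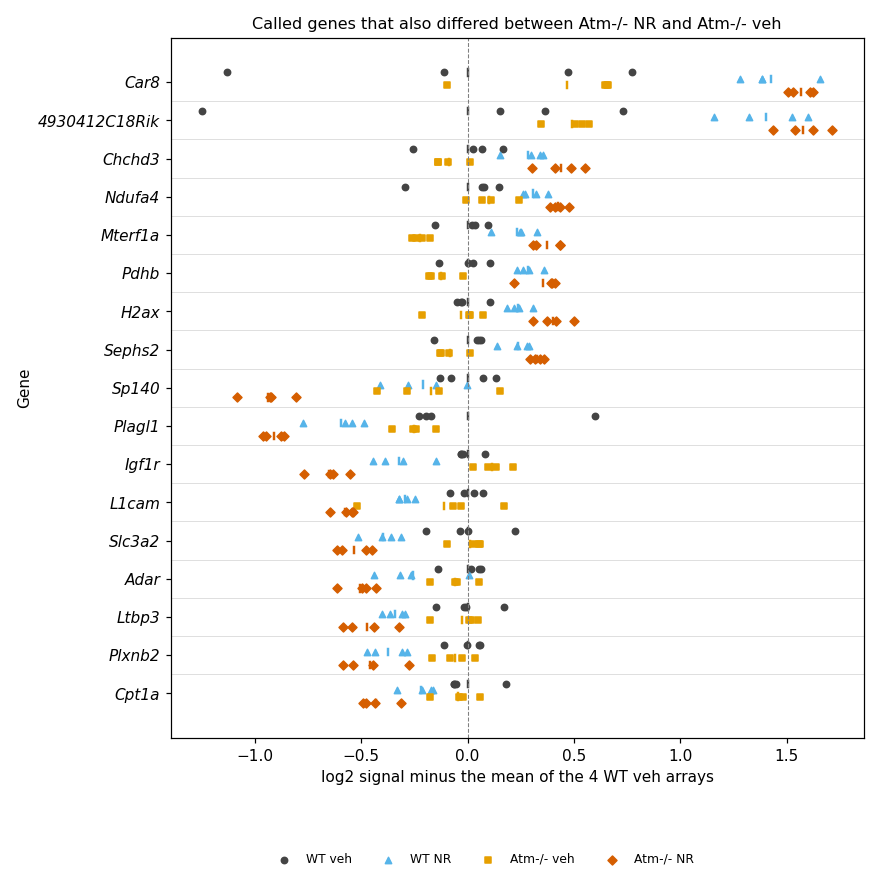
Log2 signal of 17 genes on each of the 16 arrays, minus the mean of the 4 WT veh arrays, with ticks at group means. Every gene shown was called in Atm-/- NR against WT veh and in Atm-/- NR against Atm-/- veh; Car8 is high on all 8 NR arrays, while Sp140 is low on the 4 Atm-/- NR arrays alone.

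The largest rises outside these groups were of olfactory receptor genes, which lie near the limit of detection in cerebellum. Of 1070 on the array, 197 were kept and 7 called, all higher, beside 0.358% of all named genes called higher. A gene with a signal in only some groups could be kept through the group in which it was high, so this count is no support. The list median was 0.27 in Atm-/- NR against WT veh, 0.28 in Atm-/- veh against WT veh and -0.010 in Atm-/- NR against Atm-/- veh. In mean deviation the list was at 0.0515 to 0.328 in Atm-/- NR, 0.0189 to 0.283 in Atm-/- veh and -0.322 to -0.127 in WT veh. As a list these genes were thus as high in mutants without NR. Olfr295 was at 4.64, 4.23, 5.33 and 4.59 in WT veh, well above background on 1 array, and at 6.64, 6.50, 6.43 and 7.38 in Atm-/- NR, without overlap. It was called higher (limma, adjusted p = 0.0163), but with the WT veh probe mostly not above background no exact size is given, and the estimate ran from 0.83 to 2.25 over 15 alternatives. Olfr368 was called higher too (limma, adjusted p = 0.00229), was well above background on 1 WT veh and 3 Atm-/- NR arrays, and had estimates from 0.50 to 2.12. Atm-/- NR had fewer probes well above background than WT veh, as given above. Lrrc71 (1.53, SE 0.28, limma, adjusted p = 0.0313) and 4930405J17Rik (1.48, SE 0.21, adjusted p = 0.0117) were called higher and well above background on all 8 arrays. The cytotoxic granule gene Prf1 (0.78, SE 0.10, limma, adjusted p = 0.00728) and the apelin receptor gene Aplnr (0.77, SE 0.13, adjusted p = 0.0292) rose too, both chosen after their values were seen.

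In the fixed lists for inflammation and the cytosolic DNA response, no member passed the test. Il10ra and Prf1, called above, are in none of these lists. Beside the list counts below, 9.2% of all named genes were higher and 7.98% lower at an unadjusted p under 0.05, and 6.7% were higher and 5.27% lower without overlap. Of 31 cytokines and secreted senescence factors, 20 were kept, 0 were called (limma; 6 lower and 0 higher at an unadjusted p under 0.05) and 19 had a lower mean in Atm-/- NR. Their median difference was -0.45, and without overlap 6 (30%) were lower and 1 (5%) higher. With 20 of 31 members kept, these counts are a description. Among them Tgfb1 was at 7.68, 7.68, 7.42 and 7.41 in WT veh and at 6.84, 7.28, 7.12 and 6.65 in Atm-/- NR (log2 difference -0.58, limma, adjusted p = 0.0761), and its dimmer probe had the opposite sign. Vegfa differed by -0.28 and Csf1 by -0.38 (limma, adjusted p = 0.0958 and 0.156). The mean deviation of the list was -0.524 to -0.163 in Atm-/- NR and -0.0788 to 0.432 in WT veh, without overlap. For cGAS-STING and interferon response genes, 0 of 37 were called and 0 had an unadjusted p under 0.05, with a median of -0.0071 (limma). Complement genes had 0 of 20 called (limma; 3 lower at an unadjusted p under 0.05) and a median of -0.16, with Serping1 at -0.53 and C1qa at -0.52 (adjusted p = 0.165 and 0.254).

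NAD metabolism and DNA repair genes gave 1 call. Among 18 genes of NAD synthesis and salvage and 22 of NAD-consuming enzymes, 0 were called (limma), with 2 higher and 3 lower at an unadjusted p under 0.05. Slc12a8, a proposed transporter of an NAD precursor, differed by 0.44 and Nampt, the salvage enzyme, by -0.19 (limma, adjusted p = 0.0797 and 0.342). Tnks, a telomere-binding poly(ADP-ribose) polymerase, differed by -0.40 and Sirt6 by -0.20 (limma, adjusted p = 0.0952 and 0.270). In the DNA damage list, 1 of 34 was called, H2ax, 6 were lower (17.6%) and 2 higher (5.88%) without overlap, beside 5.27% and 6.7% of all named genes, and 3 were higher and 5 lower at an unadjusted p under 0.05 (9.2% and 7.98% of all). Tdp2, which removes trapped topoisomerase 2 from DNA ends, differed by 0.40 and Prkdc, the kinase of end joining, by -0.30 (limma, adjusted p = 0.0647 and 0.0686). For p53 targets and senescence 0 of 31 were called (limma; 4 higher and 3 lower at an unadjusted p under 0.05), and for mitophagy and autophagy 0 of 42 (limma; 4 and 4). Immediate early genes had 0 of 24 called (limma; 3 lower at an unadjusted p under 0.05), with Nr4a2 at -0.84 (adjusted p = 0.0539). Heat shock genes had 1 of 23 called, Cryab. For antigen presentation, antioxidant defence, the cell cycle, the circadian clock, cholesterol synthesis, cytosolic ribosomal proteins, glutamate and GABA receptors and potassium channels 0 were called (limma), with medians between -0.13 and 0.016 and at most 8 higher or 5 lower at an unadjusted p under 0.05. Of the mitophagy and autophagy genes, Calcoco1 was at -0.40 and Atg3 at 0.39 (limma, adjusted p = 0.0728 and 0.0893).

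Among cell type markers, Purkinje cells had 1 of 19 called, Car8, and a median of 0.13, and granule cells 0 of 16 and a median of -0.044 (limma). At an unadjusted p under 0.05 (limma), 3 Purkinje cell markers were higher and 3 granule cell markers lower. In mean deviation, WT veh 4 was at -0.506 for Purkinje and -0.385 for granule cell markers. The other WT veh arrays were at -0.115 to 0.115 and -0.043 to 0.277. In whole tissue, fewer cells of a type and less RNA per cell cannot be told apart. The synaptic vesicle gene Syp differed by -0.32 (limma, adjusted p = 0.108), with 0 of 31 of its list called. Choroid plexus and ependyma markers ranged from -1.3 to 3.14 in mean deviation on the WT veh arrays and from -0.392 to 0.192 on the Atm-/- NR arrays. Ttr, the choroid plexus transthyretin gene, was at 12.33, 9.41, 8.33 and 18.05 in WT veh and at 9.69, 9.54, 7.13 and 9.97 in Atm-/- NR, and overlapped. Meninges markers had a median of -0.40, and microglia markers of -0.086. Among inhibitory interneurons, Bergmann glia and astrocytes, oligodendrocytes and their precursors, endothelial cells and pericytes, blood cells and brainstem nuclei, 0 markers were called (limma), with 5 of 17 endothelial and pericyte markers lower at an unadjusted p under 0.05 and at most 1 in either direction in each of the others. The part of these cell types in the results was not tested.

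**Figure D4:**
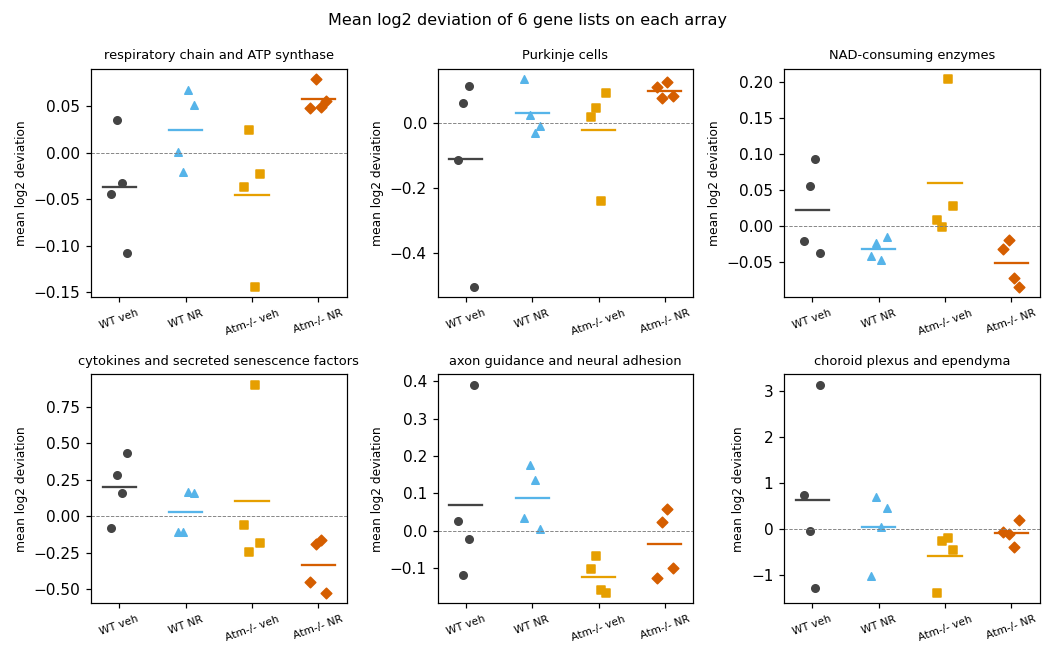
Each point is 1 array, and the y axis gives its log2 deviation from the 16-array mean of each gene, averaged over the genes of a list, with group means as lines; the y axes differ between panels. Respiratory chain levels on the 4 Atm-/- NR arrays (0.048 to 0.079) lie above the 4 WT veh arrays and overlap those of WT NR, and choroid plexus levels spread widely on WT veh.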

How the data were processed

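RNA from cerebellum was measured on 16 Agilent arrays of 1 colour, 4 per group, with groups and replicate numbers from the labels. The authors deposited spot intensity from Agilent Feature Extraction 12.0.3.1, corrected for background but not normalized between arrays, and also z-scores, a score used here as an alternative alone. RefSeq (assembly GRCm38.p6) gave gene names and gene positions to 32994 of 56605 probes by accession. The distance from Atm was taken from these gene positions, and positions of the probes themselves were not used.

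A probe counted as present on an array if a share of 0.5 or more of its spots exceeded background clearly, and it was kept if present on all 4 arrays of some group. Log2 intensities were quantile normalized, outlier spots set aside and spots of a probe averaged. This gave 37253 probes and 16737 named genes. limma 3.58.1 (R 4.3.3) fitted 4 group means over 16 arrays, with 12 residual degrees of freedom. The number of arrays limits the precision, and p-values measure the spread between these samples, which may be technical. In a simulation of Atm-/- NR against WT veh, 140 of 200 probes changed by 1 log2 unit were recovered (70%), beside 7 false calls. Its noise was independent between probes and held no difference shared across an array. The simulated false calls therefore do not give the rate in these data.

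The text names Atm, the 10 largest rises and falls without overlap, up to 5 rises and falls that shared their direction with Atm-/- veh against WT NR when called there, 5 and 5 in Atm-/- NR against Atm-/- veh, and up to 4 members per list with the smallest p. Members and lists were chosen with earlier results of these data known. Alternatives were 75th percentile scaling, normexp (offset 50), z-scores, the filter on dim probes, arrays left out, subsets of arrays, a replicate block, array weights, the methods' t-test and the study's own rule. Counts of genes called in both comparisons without shared arrays were chosen after seeing the data.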

Additional observations from a re-analysis of the deposited data

Results flagged for a closer look

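In 194 groups of 4 arrays, an array stood apart from the other 3 in 15, judged by its gap to the nearest of them as a share of the group's range (Dixon's test). Chance flags about 1 in 20 groups.

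In WT veh, replicate 1 was low for Nxpe4 (share 0.872, at 8.24 against 9.01 to 9.12), Pts (0.928, at 9.81), Ndufs3 (0.885, at 15.54) and Gadd45a (0.867, at 8.16 against 10.33 to 10.66). Replicate 4 was high for H2ax (0.836, at 12.99), Plagl1 (0.928, at 13.50), Igf1r (0.93, at 10.55), Atp2b1 (0.886, at 13.58) and Cpt1a (0.97, at 11.89), and low for Sephs2 (0.906, at 13.56). It was also high for the mean deviation of cGAS-STING and interferon response genes (0.837, at 0.17 against -0.158 to -0.105) and of microglia markers (0.835, at 0.574 against -0.199 to -0.072).

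In Atm-/- NR, replicate 1 was high for Rai1 (0.873, at 13.12) and low for Pdhb (0.894, at 15.92), and replicate 3 was low for Ttr (0.85, at 7.13 against 9.54 to 9.97).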

How the results depend on the processing

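The 289 called probes became 501 with normexp, 22 with only the 8 arrays compared, 21 with only arrays that had Y-linked genes, 1835 with array weights, 5677 by the methods' t-test unadjusted and 26 adjusted, 1352 by the study's rule, and 27 to 293 with an array left out. Named genes called near Atm were 2 with only the arrays compared, 3 with Y-linked genes, 44 with weights and 4 to 15 with an array left out, beside 18. For Atm-/- veh against WT NR, 2563 became 1632 with no filter on dim probes, 60 with only its arrays, 997 with Y-linked genes, 5391 with weights and 372 to 3274 with an array left out. For Atm-/- NR against Atm-/- veh, 3366 became 438, 6799 and 862 to 4288 with Y-linked genes, weights and an array left out. Genes near Atm called the same way in both comparisons without shared arrays, 13, became 3, 22 and 4 to 13 under these. Elsewhere the count of 0 became 1 with 75th percentile scaling, 1 with probes detected on all 16 arrays, 10 with weights and 0 to 1 with an array left out. The 39 called opposite ways became 61 with normexp, 15 without the filter, 60 with probes detected on all 16 arrays, 1 with Y-linked genes, 281 with weights and 2 to 30 with an array left out. The cause of these differences was not tested. Both Atm probes kept their direction and side of the threshold in every setting. With the z-scores left out, no single gene given here with its values reversed its sign. The share of called probes that were higher, 54.7%, was 35.6% with z-scores, 37.1% without the filter, 33.3% with Y-linked genes, 34.6% by the adjusted t-test and 33.3% to 73% with an array left out, lowest without WT veh 2 and highest without WT veh 3. Of 1767 values recomputed under an alternative, 1267 kept their direction and call or moved little. The 16 settings counted for single genes leave out the z-scores. Tmem25, Fxyd6, Sp140 and 4930405J17Rik were called in all 16, Igf1r in 15, H2ax in 7 and Car8 in 5 (limma, adjusted p between 0.013 and 0.159). Ndufa4, Chchd3, Pdhb and Pstk were called in 4 each and Sephs2 in 3. Gene list medians on the z-scores were not run.

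Replicate numbers did not pair the samples: deviations of same-numbered arrays correlated at -0.33 to -0.0078 over 4 pairs. With the replicate block, 108 probes and 11 named genes near Atm were called, and genes elsewhere called in both were 1 in the same and 15 in opposite directions.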
